A study of Mus musculus with 4 samples.

Results

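Ly6 family genes were followed here as RNA and as surface protein in the same T cells. The members are 4 genes, Ly6a, Ly6c1, Ly6c2 and Ly6e, among 32285 genes counted, and the antibody tag for Ly-6C, 1 of 197 named tags. They were selected on earlier results of these counts, in which Ly6c1 RNA was lower in Cd4 cells under the knockdown, and were followed across Cd4, Cd8 and Foxp3 cells called from RNA. The T cells were sorted as live CD3+ cells from subcutaneous tumors in Wild-type C57BL/6J mice, male and 6 weeks old at injection. The tumors grew from 105K cells, a Tsc2-deficient mouse kidney tumor line, which carried either a control short hairpin RNA (sh-NC, n = 2 libraries) or the hairpin sh-B7-H3 (1) against Cd276, the gene of the checkpoint protein B7-H3 (n = 2 libraries). The tumor cells were puromycin-selected pools and not clones, the T cells carried no hairpin, and 80 tumors of a group were pooled, so a library is not 1 animal. The labels describe duplicate lanes of a pool, whereas a legend of the study describes independent samples, and which of these the libraries are was not settled. The p-values below rest on the spread between these libraries only, which may be technical. The fits pool this spread over genes, so small p-values from few libraries draw on other genes too. Knockdown and handling of the pools cannot be told apart.

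Ly6 proteins are small cell-surface proteins of the Ly6/uPAR fold that are held in the outer membrane leaflet by a lipid (GPI) anchor. Ly6c1 and Ly6c2 encode closely related forms of Ly-6C, an antigen of monocytes and of subsets of T cells that is widely used to mark memory and naive states. Ly6a encodes Sca-1 (Ly-6A/E), a stem cell antigen that lymphocytes also raise on activation and in response to interferon, and Ly6e encodes a broadly expressed relative that is also known as an interferon-induced gene. RNA levels are given as CPM, counts scaled to a total of 1000000 RNA UMIs (a UMI, or unique molecular identifier, marks 1 captured molecule), and tag levels as a percent of all tag UMIs of the same cells. Differences are log2 fold changes with their standard errors (SE) from edgeR's quasi-likelihood test, and calls were made at an adjusted p (Benjamini-Hochberg, over all genes or all tags tested) under 0.05. Values of 4 libraries follow the order sh-NC libraries 1 and 2, then sh-B7-H3 (1) libraries 1 and 2. In the reference annotation of GRCm38 all 4 genes are protein coding and lie in a cluster on chromosome 15. Ly6e (ENSMUSG00000022587) lies at chr15:74955051-74959905 on the plus strand. Ly6a (ENSMUSG00000075602) at chr15:74994877-74998031, Ly6c1 (ENSMUSG00000079018) at chr15:75044018-75048830 and Ly6c2 (ENSMUSG00000022584) at chr15:75108158-75111970 lie on the minus strand.

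Ly6c1 and Ly6c2 differ little in their transcripts, which bears on how far their counts can be separated, and more in their promoters. Of 822 aligned bases of their longest protein-coding transcripts 802 were identical (97.6%), and of 293 aligned bases within the last 300, where 3′ libraries are read, 287 were identical (98.0%). The longest shared run was 188 bases over the whole transcripts and 124 bases within the last 300. A read within such a run could come from either gene, and the split of counts between both genes is uncertain to that extent. The promoter windows of both genes, from 250 bases before to 50 bases after the start, are shown because the RNAs were found in different lineages (below). They are from RefSeq's GRCm38.p6 table, on the minus strand, at chr15:75048788-75049087 for Ly6c1 and chr15:75111922-75112221 for Ly6c2. Bases 32 to 300 of the first align with bases 1 to 279 of the second, with 208 of 266 aligned bases identical (78.2%), and capitals mark aligned bases that differ or have no partner.
Ly6c1: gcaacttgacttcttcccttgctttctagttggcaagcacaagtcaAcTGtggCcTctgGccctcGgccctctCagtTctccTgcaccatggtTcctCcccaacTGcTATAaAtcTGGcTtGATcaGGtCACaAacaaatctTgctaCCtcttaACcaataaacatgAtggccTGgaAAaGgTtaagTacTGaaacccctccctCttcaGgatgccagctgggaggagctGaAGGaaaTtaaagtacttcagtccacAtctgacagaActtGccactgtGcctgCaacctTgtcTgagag
Ly6c2: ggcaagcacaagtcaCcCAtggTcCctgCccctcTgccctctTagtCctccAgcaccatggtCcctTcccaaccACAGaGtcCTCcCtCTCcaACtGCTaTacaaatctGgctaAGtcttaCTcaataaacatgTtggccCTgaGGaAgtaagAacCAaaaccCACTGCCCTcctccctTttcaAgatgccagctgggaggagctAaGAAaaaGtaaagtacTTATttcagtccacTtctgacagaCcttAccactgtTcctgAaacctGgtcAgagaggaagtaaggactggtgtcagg
Neither the core of the interferon-stimulated response element (GAAA, any 2 bases, GAAA, on either strand) nor the GAS element (TTCNNNGAA, a palindrome) was found in the 4 windows listed for both genes. Of 32851 promoters of that length 3.44% hold the former and 8.30% the latter. The table used lists no window for Ly6a or Ly6e.

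The libraries held 7030 to 12112 called cells and 79224898 to 132820909 RNA UMIs. After filters 18613 of 38860 cells were kept, with a median of 6364 to 8319 RNA UMIs per cell, and 12885 fell into 3 classes called from RNA: 4177 Cd4 cells (a Cd4 UMI, no Cd8a or Cd8b1), 7777 Cd8 cells (at least 2 UMIs of Cd8a and Cd8b1, no Cd4) and 931 Foxp3 cells (a UMI of Foxp3, the regulatory T cell factor). The CD4 tag made up 0.203 to 0.472% of tag UMIs in Cd4 cells and 0.0247 to 0.0414% in Cd8 cells, and the CD8b tag 1.367 to 1.503% in Cd8 cells. Cd276 itself had 0 UMIs in the 3 classes, so the knockdown in the tumor cells could not be checked in these T cells. Between libraries 17 to 35 cell barcodes were shared. The chi-square per degree of freedom between libraries of a group, which counting alone would put at about 1, was 1.37 to 1.75 over genes and 92.3 to 593 over tags. Markers of other cells moved with the knockdown: the summed level of 12 macrophage or monocyte genes was 12.8 to 13.6 CPM in Cd4 cells of the sh-NC libraries and 57.1 to 60.6 CPM in those of the sh-B7-H3 (1) libraries, mostly Apoe, 13.9 to 15.3 against 56.2 to 60.0 CPM in Cd8 cells, and 23.7 to 28.0 against 62.1 to 89.5 CPM in Foxp3 cells. Monocytes express Ly6c2 and endothelial cells Ly6c1 and Ly6a. The endothelial list, nearly all Pecam1 (which T cells also express), was at 57.5 to 60.1 against 29.0 to 30.0 CPM in Cd4 cells, with Cdh5, Kdr and Emcn at 0, and at 32.3 to 33.1 against 16.0 to 17.6 CPM in Cd8 cells. In Cd4 cells the NK list (Klre1, with Ncr1 at 0) went from 5.62 to 5.95 CPM to 40.2 to 40.6 CPM. The tumor or stroma list there went from 4.49 to 4.93 CPM to 12.6 to 13.7 CPM. In Cd8 cells the NK list went from 6.49 to 7.19 CPM to 43.3 to 49.6 CPM. The B cell list there went from 15.9 to 19.0 CPM to 8.27 to 10.2 CPM. The rise of the NK list was that of Klre1. Klrb1c, also listed, was lower, at 0.259 to 0.395 against 0 to 0.175 CPM in Cd4 cells. In Cd8 cells Klrb1c was at 0.737 to 0.879 against 0.479 to 0.600 CPM. The tumor or stroma list went from 6.32 to 7.42 CPM to 9.95 to 10.5 CPM in Cd8 cells and from 23.2 to 29.1 CPM to 39.4 to 45.8 CPM in Foxp3 cells. The part of these cells in the results was not tested.

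The family was represented by few genes. Of 31 genes of the Ly6/uPAR family looked for, 13 had 0 UMIs in the 3 classes and 8 reached a mean of 5 CPM in any class. The highest was Ly6e, at a mean of 1407 CPM in Foxp3 cells, before Ly6a at 817 CPM in the same cells, Ly6c2 at 284 CPM in Cd8 cells and Ly6c1 at 120 CPM in resting Cd4 cells. The other 4 stayed low: Ly6k reached 11.4 CPM, Ly6g5b 7.05 CPM, Ly6d 5.96 CPM and Plaur, the urokinase receptor, 5.38 CPM.

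The RNAs of the 2 Ly-6C genes lay in different lineages. In Cd4 cells Ly6c1 was at 146 and 123 CPM in the sh-NC libraries and 29.7 and 44.4 CPM in the sh-B7-H3 (1) libraries. In Cd8 cells it was at 5.06 and 6.13 CPM and at 2.16 and 4.12 CPM. Every library thus had more Ly6c1 in its Cd4 than in its Cd8 cells. Ly6c2 was the reverse, at 372 and 387 CPM in Cd8 cells of the sh-NC libraries and 181 and 197 CPM in those of the sh-B7-H3 (1) libraries. In Cd4 cells it was at 11.7 and 7.40 CPM and at 6.27 and 11.5 CPM. Between Cd8 and Cd4 cells of the same 4 libraries 23.6% of genes were called. Ly6c1 was lower in Cd8 cells by a log2 difference of -4.22 (SE 0.153, edgeR adjusted p = 5.14e-09) and Ly6c2 was higher by 5.14 (SE 0.148, edgeR adjusted p = 1.10e-09). The Ly-6C tag was higher in Cd8 cells by 0.81 (SE 0.0263, edgeR adjusted p = 0.000274), where 14.2% of tags were called.

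Per cell, the gene of the lineage accounted for most detections. In Cd4 cells with at least 1 UMI of either, Ly6c1 alone was found in 634, 474, 72 and 107 cells (sh-NC libraries 1 and 2, then sh-B7-H3 (1) libraries 1 and 2), Ly6c2 alone in 44, 34, 20 and 24, and both in 40, 25, 5 and 9. In Cd8 cells Ly6c2 alone was found in 1156, 1045, 254 and 373 cells, Ly6c1 alone in 44, 35, 11 and 27, and both in 28, 46, 4 and 8. In each library the gene of the lineage was found more often. In droplets without a cell Ly6c2 was at 196 CPM in the sh-NC and 136 CPM in the sh-B7-H3 (1) libraries and Ly6c1 at 67.2 and 34.1 CPM (means, n = 2), and the part of this free RNA in cells with a single UMI was not tested. With every cell thinned to 1000 UMIs, 12.7, 11.01, 3.53 and 2.97% of Cd4 cells had a Ly6c1 UMI against 0.411, 0.339, 0.0873 and 0.450% of Cd8 cells. Ly6c2 was found in 19.3, 20.5, 8.03 and 9.84% of thinned Cd8 cells and in 1.27, 0.897, 0.803 and 0.618% of Cd4 cells. Without thinning, at medians of 6662 to 8991 UMIs per cell, Ly6c1 was found in 45.0, 40.7, 12.2 and 14.1% of Cd4 cells and Ly6c2 in 44.2, 46.2, 22.1 and 24.2% of Cd8 cells. In macrophage-like cells thinned to the same depth (15, 18, 68 and 46 cells, of median depths from 1810 to 3297.5 UMIs), Ly6c2 was found in 0 cells, which allows shares of up to 21.8, 18.5, 5.28 and 7.71% (exact 95% limits), and Ly6c1 in 0, 0, 0 and 1 cell. Not thinned, Ly6c2 was found in 2 of 20, 0 of 21, 1 of 74 and 2 of 55 of these cells, and at 2000 UMIs in 2 of 12 in sh-NC library 1. These few cells give no tight background. Within Cd8 cells the low level of Ly6c1 was uneven, at 27.2, 24.1, 36.0 and 38.0 CPM in resting and 1.86, 2.12, 0.461 and 1.76 CPM in effector cells (states defined below).

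**Figure D1:**
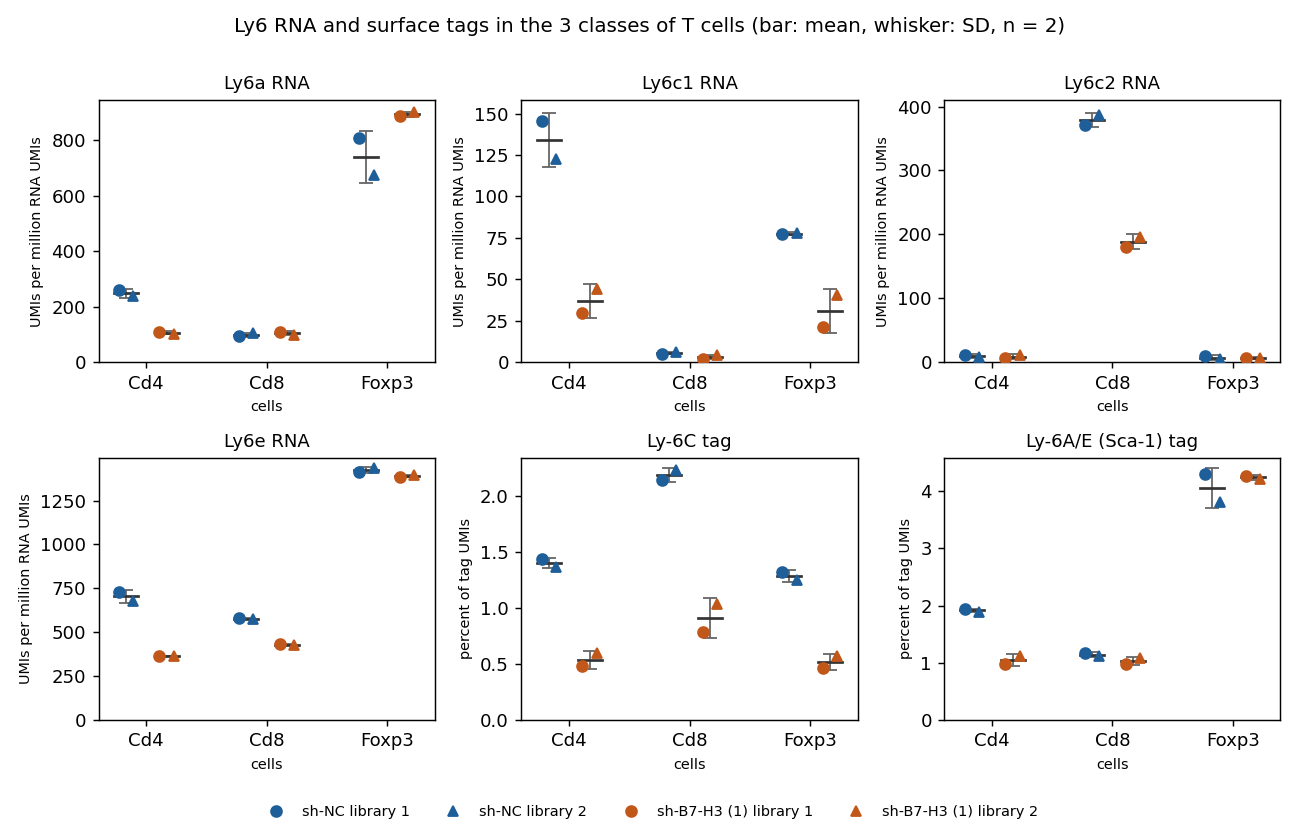
Levels of the Ly6 RNAs (CPM) and of the Ly-6C and Ly-6A/E (Sca-1) tags (percent of tag UMIs) in Cd4, Cd8 and Foxp3 cells, with 1 point per library and bars for the mean and SD of the 2 libraries of a group. Ly6c1 is high in Cd4 cells and Ly6c2 in Cd8 cells, both lower in the sh-B7-H3 (1) libraries, and Ly6a, Ly6e and the Ly-6A/E tag are highest in Foxp3 cells.

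Ly6c2 in Cd8 cells was carried by a minority. Cells with at least 5 UMIs numbered 619 of 2677 (23.1%, exact 95% interval 21.5 to 24.8%) and 572 of 2360 (24.2%, 22.5 to 26.0%) in the sh-NC libraries, and 92 of 1166 (7.89%, 6.41 to 9.59%) and 170 of 1574 (10.8%, 9.31 to 12.4%) in the sh-B7-H3 (1) libraries. These cells held 87.5, 87.9, 80.7 and 83.8% of all Ly6c2 UMIs of their class. Within them the median was 10, 10, 11 and 10 UMIs per cell, in cells taken at 5 or more UMIs and not thinned. Depth differed, with medians of 8643, 8991, 6777.5 and 6970.5 RNA UMIs per Cd8 cell. The intervals cover counting error only. The same cut was used for Ly6c1 in Cd4 cells, whose level is lower, so shares over it do not compare the spread of both genes. At least 5 Ly6c1 UMIs were found in 88 of 1498 (5.87%) and 67 of 1226 (5.46%) Cd4 cells of the sh-NC libraries. In the sh-B7-H3 (1) libraries they were found in 2 of 631 (0.317%) and 11 of 822 (1.34%). These cells held 33.5, 34.4, 7.81 and 26.0% of the Ly6c1 UMIs of their class. These cells were not thinned, 45.5% of genes were called under the knockdown in Cd8 and 40.1% in Cd4 cells, and the share of Ly6c1 is a description like its fall in Cd4 cells.

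The Ly-6C tag had higher rank correlations with Ly6c2 RNA in Cd8 cells than with Ly6c1 RNA in Cd4 cells. Spearman's coefficient per cell, with each cell thinned to 2000 RNA UMIs, was 0.604, 0.608, 0.431 and 0.463 for Ly6c2 in Cd8 cells and 0.256, 0.196, 0.276 and 0.233 for Ly6c1 in Cd4 cells. In Foxp3 cells the value for Ly6c1 was 0.279, 0.288, 0.156 and 0.193. The cells of a library share its staining and depth, so these are descriptions. At that depth Ly6c2 was found in 28.2, 29.3, 13.0 and 14.1% of Cd8 cells. Ly6c1 was found in 18.9, 16.4, 4.98 and 5.44% of Cd4 cells. The part of this detection and of tag background (below) in the lower coefficients was not tested. The median tag level rose in steps with the RNA: Cd8 cells with 0 UMIs of Ly6c1 and Ly6c2 together had 11.3, 11.1, 3.97 and 4.97 Ly-6C counts per 1000 tag UMIs, those with 1 UMI had 19.9, 21.3, 7.77 and 11.8, those with 2 UMIs had 32.6, 27.8, 25.4 and 29.3, and those with 3 or more had 47.7, 50.8, 42.1 and 45.1 (240, 236, 45 and 67 cells). At 0 UMIs the sh-B7-H3 (1) libraries lay below the sh-NC libraries by more than the spread of either pair. At 3 or more UMIs the groups were separated by less, and the knockdown libraries still lay below. In Cd4 cells the median went from 14.1, 13.8, 4.31 and 5.34 at 0 UMIs to 16.7, 15.5, 7.74 and 10.5 at 1 UMI. That step was shallow in the sh-NC libraries. In the sh-B7-H3 (1) libraries it was near the step of their Cd8 cells from 0 to 1 UMI.

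**Figure D2:**
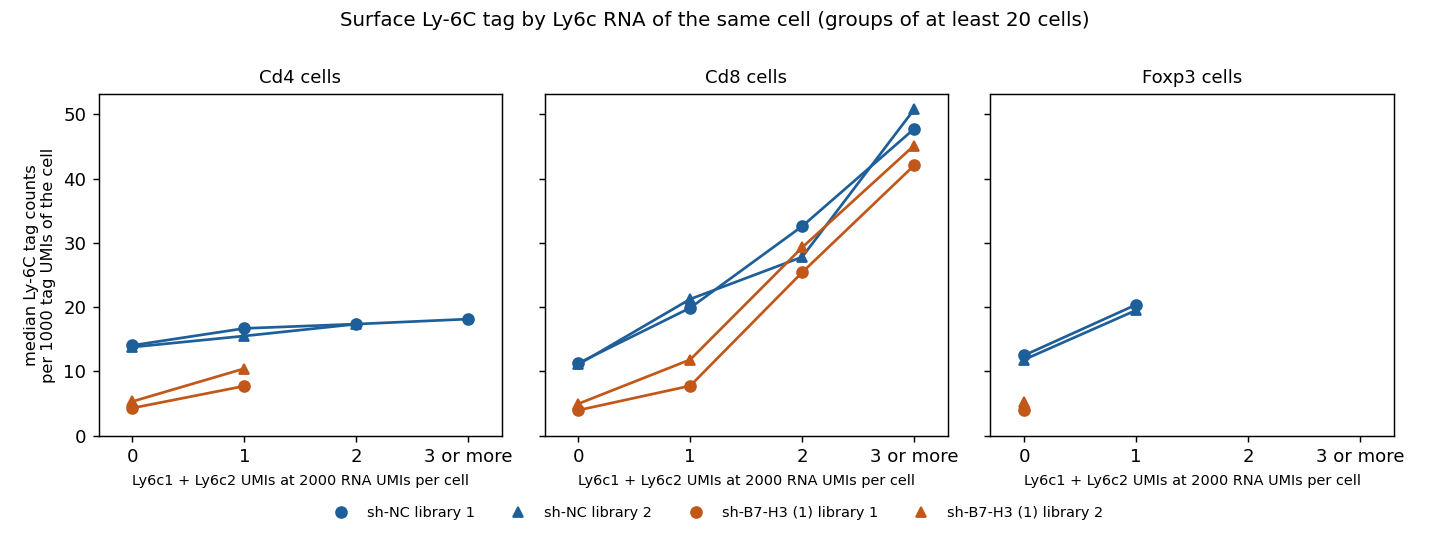
Median Ly-6C tag level (counts per 1000 tag UMIs) by the number of Ly6c1 and Ly6c2 UMIs found in a cell thinned to 2000 RNA UMIs, with 1 line per library. Cd8 cells rise from 11.3, 11.1, 3.97 and 4.97 at 0 UMIs to 47.7, 50.8, 42.1 and 45.1 at 3 or more. Cd4 cells of the sh-NC libraries rise little, and those of the sh-B7-H3 (1) libraries go from 4.31 and 5.34 at 0 UMIs to 7.74 and 10.5 at 1 UMI.

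The tag was not free of background. In droplets without a cell (at most 100 RNA UMIs) the Ly-6C tag took 3.67, 3.77, 1.08 and 1.27% of tag UMIs. That is a higher share than in any class, and it was lower in the sh-B7-H3 (1) libraries by a log2 ratio of -1.66. In effector Cd4 cells with no Ly6c1 or Ly6c2 UMI (114, 117, 305 and 383 cells) it took 0.766, 0.788, 0.360 and 0.436%, a log2 ratio of -0.96. Both differences go the way of the difference between the groups in the classes, and their part in it was not tested.

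Ly6a and its protein were compared through the tag for Ly-6A/E (Sca-1), whose antibody detects Ly6a's product. Spearman's coefficient per cell was 0.678, 0.637, 0.724 and 0.651 in Foxp3 cells, 0.258, 0.291, 0.356 and 0.328 in Cd4 cells and 0.261, 0.289, 0.371 and 0.291 in Cd8 cells. Among the classes the coefficients for Ly6a were highest in Foxp3 cells, which had most of it. Within Cd4 cells they were higher in the sh-B7-H3 (1) libraries, which had less of it. With cells thinned to 2000 RNA UMIs, Ly6a was found in 46.8 to 54.2% of Foxp3 cells. It was found in 14.2 to 31.4% of Cd4 and 11.9 to 15.4% of Cd8 cells. The part of detection in the coefficients was not tested. The Ly-6A/E tag took 4.31, 3.81, 4.27 and 4.21% of tag UMIs in Foxp3 cells, 1.94, 1.89, 0.974 and 1.12% in Cd4 cells and 1.17, 1.11, 0.974 and 1.07% in Cd8 cells.

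Foxp3 cells had the highest Ly6a and Ly6e. Ly6a was at 806, 674, 887 and 900.4 CPM in Foxp3 cells, 260.0, 237, 111 and 102 CPM in Cd4 cells and 94.4, 104, 109 and 99.3 CPM in Cd8 cells. Ly6e was at 1412, 1435, 1385 and 1396 CPM in Foxp3 cells, 729.9, 677, 364 and 366 CPM in Cd4 cells and 578, 576, 430.1 and 426 CPM in Cd8 cells. All 4 libraries had more of either RNA in Foxp3 cells than in the other classes. Against Cd4 cells, where 23.8% of genes were called, Ly6a was higher by a log2 difference of 2.10 (SE 0.269, edgeR adjusted p = 0.000234) and Ly6e by 1.27 (SE 0.171, edgeR adjusted p = 0.000321). The Ly-6A/E tag was higher by 1.52 (SE 0.221, edgeR adjusted p = 0.0147, with 20.3% of tags called), a call that ended without sh-B7-H3 (1) library 2 (1.38, adjusted p = 0.0509). Ly6c1 was lower in Foxp3 than in Cd4 cells (77.1, 78.2, 21.4 and 40.4 CPM), with a log2 difference of -0.85 (SE 0.129, edgeR adjusted p = 0.000753), and Ly6c2 was at 10.2, 4.34, 7.12 and 5.91 CPM. The Ly-6C tag differed by -0.12 (edgeR adjusted p = 0.0958), which did not pass. Between Cd8 and Cd4 cells Ly6a differed by -0.63 (SE 0.1995, edgeR adjusted p = 0.0388), a call lost without sh-NC library 1 (-0.35, adjusted p = 0.192) and without sh-NC library 2 (-0.45, adjusted p = 0.266), and Ly6e by 0.10 (adjusted p = 0.465), not called.

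The question of the design is how T cells differ between tumors with and without the knockdown. In Cd4 cells Ly6a, Ly6c1 and Ly6e were all lower in the sh-B7-H3 (1) libraries, with levels of each gene that do not overlap between the groups (above). The mean of Ly6a was 249 ± 16.2 CPM in the sh-NC and 106 ± 6.17 CPM in the sh-B7-H3 (1) libraries (SD, n = 2), a log2 difference of -1.34 (SE 0.0587, edgeR adjusted p = 4.05e-11). For Ly6e the means were 704 ± 37.1 and 365 ± 0.928 CPM (SD, n = 2), a log2 difference of -1.05 (SE 0.0431, edgeR adjusted p = 1.84e-11). Ly6c1 was at 134 ± 16.4 and 37.0 ± 10.3 CPM (SD, n = 2), a log2 difference of -1.93 (SE 0.120), which is given as a description because this fall took part in choosing the genes. Ly6c2 was at 9.57 ± 3.06 and 8.90 ± 3.72 CPM, and did not pass (log2 fold change -0.17, adjusted p = 0.638). In these cells 40.1% of all genes were called, so calls were common among all genes. Besides Ly6c1, 4 of the 6 family genes tested fell and 0 rose (19.5% of all genes fell and 20.5% rose), among them Plaur (log2 fold change -1.17, edgeR adjusted p = 0.0143) and Ly6k (-0.72, edgeR adjusted p = 0.0112).

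In Cd8 cells the gene that moved most among the members was Ly6c2. Its mean was 379 ± 10.95 CPM in the sh-NC and 189 ± 11.1 CPM in the sh-B7-H3 (1) libraries (SD, n = 2), a log2 difference of -1.09 (SE 0.0397, edgeR adjusted p = 5.65e-36). Ly6e was at 577 ± 1.46 and 428 ± 2.90 CPM (SD, n = 2) and fell by 0.52 on the log2 scale (SE 0.0355, edgeR adjusted p = 3.23e-21). Ly6c1, low in these cells, changed by -0.85 (SE 0.203, edgeR adjusted p = 0.000322), a call that ended with lineages called from tags (-0.38, adjusted p = 0.224) and with cells of 4000 to 12000 UMIs (-0.39, adjusted p = 0.239). Ly6a was at 99.3 ± 7.02 and 104 ± 6.82 CPM and its groups overlap. Its fitted log2 difference, after TMM scaling, was -0.03 (SE 0.0479, adjusted p = 0.627), opposite in sign to that of the CPM means. All of this stands beside 45.5% of genes called, 22.5% lower and 23% higher. Of 9 family genes tested 7 fell and 1 rose, Ly6g5b (log2 fold change 0.61, edgeR adjusted p = 0.0344).

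In Foxp3 cells fewer genes were called (5.64%, with 2.96% higher and 2.68% lower), and of the members Ly6c1 fell. Ly6c1 was at 77.6 ± 0.779 and 30.9 ± 13.5 CPM (SD, n = 2), a log2 difference of -1.33 (SE 0.204, edgeR adjusted p = 9.63e-06). Ly6a was at 740.4 ± 93.3 and 893 ± 9.74 CPM (SD, n = 2), higher by 0.26 (SE 0.0787, edgeR adjusted p = 0.0385). That call ended without sh-NC library 2 (0.11, adjusted p = 0.567), without sh-B7-H3 (1) library 1 (0.28, adjusted p = 0.106) and without sh-B7-H3 (1) library 2 (0.24, adjusted p = 0.203), as it did with DESeq2 (adjusted p = 0.335), and with lineages called from tags the difference was -0.036. Ly6e (log2 fold change -0.04, adjusted p = 0.811) and Ly6c2 (-0.17, adjusted p = 0.918) did not pass.

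The Ly-6C tag was lower under the knockdown in all classes. In Cd4 cells it took 1.44, 1.37, 0.480 and 0.594% of tag UMIs, in Cd8 cells 2.15, 2.23, 0.784 and 1.04%, and in Foxp3 cells 1.32, 1.25, 0.467 and 0.567%. The groups do not overlap in any class. The log2 fold changes were -1.67 (SE 0.122, edgeR adjusted p = 0.00172), -1.70 (SE 0.156, edgeR adjusted p = 0.00262) and -1.62 (SE 0.115, edgeR adjusted p = 0.00145), where 52.8, 63.5 and 38.6% of tags were called. The scaling of the tags matters: TMM (edgeR's default) called 54 tags higher and 50 lower in Cd4 cells, 60 and 65 in Cd8 cells and 38 and 38 in Foxp3 cells, while scaling to total tag counts called 123 and 27, 150 and 25, and 99 and 16, with a shift of the median tag of 0.31, 0.43 and 0.33 on the log2 scale. Scaled to total tag counts the Ly-6C tag still fell, by 1.39, 1.26 and 1.31. The Ly-6A/E tag fell by 1.16 in Cd4 cells (SE 0.0854, edgeR adjusted p = 0.00172) and by 0.58 in Cd8 cells (SE 0.0571, edgeR adjusted p = 0.00304). In Cd8 cells its call ended when scaled to total tag counts (-0.15, adjusted p = 0.0752), and in Foxp3 cells it did not pass (-0.24, adjusted p = 0.0755), though it did with DESeq2 (-0.26, adjusted p = 0.000268) and with isotype scaling (-0.41, adjusted p = 0.0224), and it was 0.063 (adjusted p = 0.607) when scaled to total tag counts. The Gr-1 tag, whose antibody is known to bind Ly-6G and also Ly-6C, took 0.0374, 0.0616, 0.0363 and 0.0379% in Cd8 cells and was not called there (-0.85, adjusted p = 0.0629) but fell in Cd4 cells (-0.38, SE 0.0621, edgeR adjusted p = 0.0119), and the Ly-6G tag, at about 0.02% in all classes, was called in none.

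Over whole classes, the effect differed between lineages. The makeup of the classes differed between the groups (below), and the difference was not tested within states. In effector Cd4 and Cd8 cells the log2 fold changes were -0.49 and -0.49 for Ly6e and -1.84 and -0.90 for Ly6a. In resting cells they were -0.41 and -0.10 for Ly6e and -1.09 and 0.73 for Ly6a, those in Cd8 cells not called. The log2 fold change in Cd8 cells minus that in Cd4 cells, tested as an interaction with 4.93% of genes called, was 1.304 for Ly6a (SE 0.0759, edgeR adjusted p = 4.34e-16) and 0.52 for Ly6e (SE 0.0457, edgeR adjusted p = 5.98e-11). For Ly6c2 it was -0.92 (SE 0.220, edgeR adjusted p = 0.00662), a call that ended with DESeq2 (adjusted p = 1.00), without sh-NC library 2 (-0.63, adjusted p = 0.115) and without sh-B7-H3 (1) library 2 (-0.41, adjusted p = 0.628). For Ly6c1 it was 1.06 (SE 0.238), given with no p because the fall in Cd4 cells took part in choosing the gene. The difference was 0.58 for the Ly-6A/E tag (SE 0.0475, edgeR adjusted p = 0.0285, with 7.61% of tags called), a call that ended without any 1 of the 4 libraries (0.54 to 0.63, adjusted p from 0.0710 to 0.150) and with isotype scaling (adjusted p = 0.0621). For the Ly-6C tag it was -0.02 (SE 0.0524, adjusted p = 0.892).

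The makeup of the classes also differed between the groups. Resting cells, with a UMI of Ccr7 (the lymph node homing receptor) or of 1 other marker and no Nkg7, were 74.8 ± 1.12% of Cd4 cells in the sh-NC and 25.9 ± 0.141% in the sh-B7-H3 (1) libraries (SD, n = 2). Effector cells, with at least 2 UMIs of the cytolytic granule gene Nkg7 and neither of these markers, were 9.06 ± 1.38% and 49.3 ± 1.29% of Cd4 cells and 16.7 ± 2.02% and 58.5 ± 1.69% of Cd8 cells. Resting cells were 4.77 ± 1.18% and 2.64 ± 0.218% of Cd8 cells. Among Foxp3 cells, where Ly6c1 fell under the knockdown, 48.0 ± 3.58% and 20.0 ± 4.19% were resting and 3.68 ± 1.03% and 16.3 ± 0.628% effector cells (SD, n = 2), and the part of this shift in the fall was not tested. Within the Cd4 class Ly6c1 was at 168, 144, 61.4 and 107 CPM in resting cells and at 0, 1.15, 1.41 and 2.24 CPM in effector cells (0, 1, 3 and 6 UMIs). In Cd8 cells it had 33, 20, 7 and 11 UMIs in resting and 5, 6, 2 and 10 UMIs in effector cells, at the levels given above. Each library was higher in its resting cells. No test is given, since the gene passed the filter on low counts through the resting cells. Between effector and resting cells 52.5% of genes were called in Cd4 and 27.8% in Cd8 cells. Ly6c2 was called higher in effector Cd4 cells (1.06, SE 0.373, edgeR adjusted p = 0.0178). That call ended with DESeq2 (adjusted p = 0.626), and without sh-NC library 1 the difference was -0.35. In Cd8 cells Ly6c2 did not pass (0.23, edgeR adjusted p = 0.288). Ly6e was lower in effector cells of both lineages, with -1.52 in Cd4 cells (SE 0.0633, edgeR adjusted p = 7.69e-19) and -0.43 in Cd8 cells (SE 0.0762, edgeR adjusted p = 1.71e-05). Ly6a was higher in effector Cd8 cells (0.93, SE 0.167, edgeR adjusted p = 1.93e-05), a call that ended with DESeq2 (adjusted p = 0.405), and did not pass in Cd4 cells (-0.26, adjusted p = 0.0741). Without sh-NC library 1, whose effector Cd4 cells had 406 CPM of Ly6a against 79.0 to 207 CPM in the other libraries, the difference in Cd4 cells was -0.63 (edgeR adjusted p = 1.26e-06), and it also passed without a filter on low counts (-0.29, adjusted p = 0.00347) and with cells of 4000 to 12000 UMIs (-0.31, adjusted p = 0.0275).

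Within states, some of the knockdown differences were still found, but the states were not matched between the groups. Lists of resting genes (such as Tcf7) and effector genes (such as Ccl5) also moved. In resting Cd4 cells 5 of 7 effector genes tested rose and 3 of 10 resting genes fell. In effector Cd8 cells 9 of 12 effector genes rose and 1 fell, and 8 of 8 resting genes fell. In effector Cd4 cells 2 of 12 effector genes rose and 5 fell. The part of this in the falls below was not tested. In resting Cd4 cells, where 2.18% of genes were called (1.29% higher, 0.883% lower), Ly6a was at 230.2, 227, 98.4 and 103 CPM and fell by 1.09 on the log2 scale (SE 0.0805, edgeR adjusted p = 1.42e-09). Ly6e was at 742, 711, 504 and 528 CPM and fell by 0.41 (SE 0.0455, edgeR adjusted p = 1.99e-06), and Ly6c1 was at the levels above, a log2 difference of -0.76 (SE 0.136, -0.47 without sh-B7-H3 (1) library 1), which is a description like the fall in all Cd4 cells that it is part of. Each of Ly6a and Ly6e was lower in both sh-B7-H3 (1) libraries than in both sh-NC libraries. In effector Cd4 cells, with 4.34% called, Ly6a was at 406, 207, 81.6 and 79.0 CPM and fell by 1.84 (SE 0.157, edgeR adjusted p = 1.17e-10), and Ly6e was at 388, 295, 231 and 224 CPM and fell by 0.49 (SE 0.0964, edgeR adjusted p = 0.0011). The Ly6e call ended with DESeq2 (adjusted p = 0.0732) and without sh-NC library 1 (-0.30, adjusted p = 0.118). Ly6c2 passed there too (-1.72, adjusted p = 0.0292), but rests on sh-NC library 1, where it had 47 UMIs, and 1 Cd4 cell of that library held 30. Without that library the log2 difference was 0.69. In effector Cd8 cells, with 12.1% called (5.39% higher, 6.74% lower), Ly6c2 was at 187, 242, 68.9 and 66.6 CPM and fell by 1.64 (SE 0.0840, edgeR adjusted p = 2.56e-18), Ly6a was at 273, 336, 169 and 152 CPM and fell by 0.90 (SE 0.0684, edgeR adjusted p = 3.39e-13), and Ly6e fell by 0.49 (SE 0.0474, edgeR adjusted p = 2.54e-10). In resting Cd8 cells, 29 to 150 per library and with 0.92% of genes called, no member passed, but Ly6a did without sh-NC library 1 (1.06, adjusted p = 0.0170) and Ly6c2 without sh-B7-H3 (1) library 2 (-2.07, adjusted p = 0.00403).

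**Figure D3:**
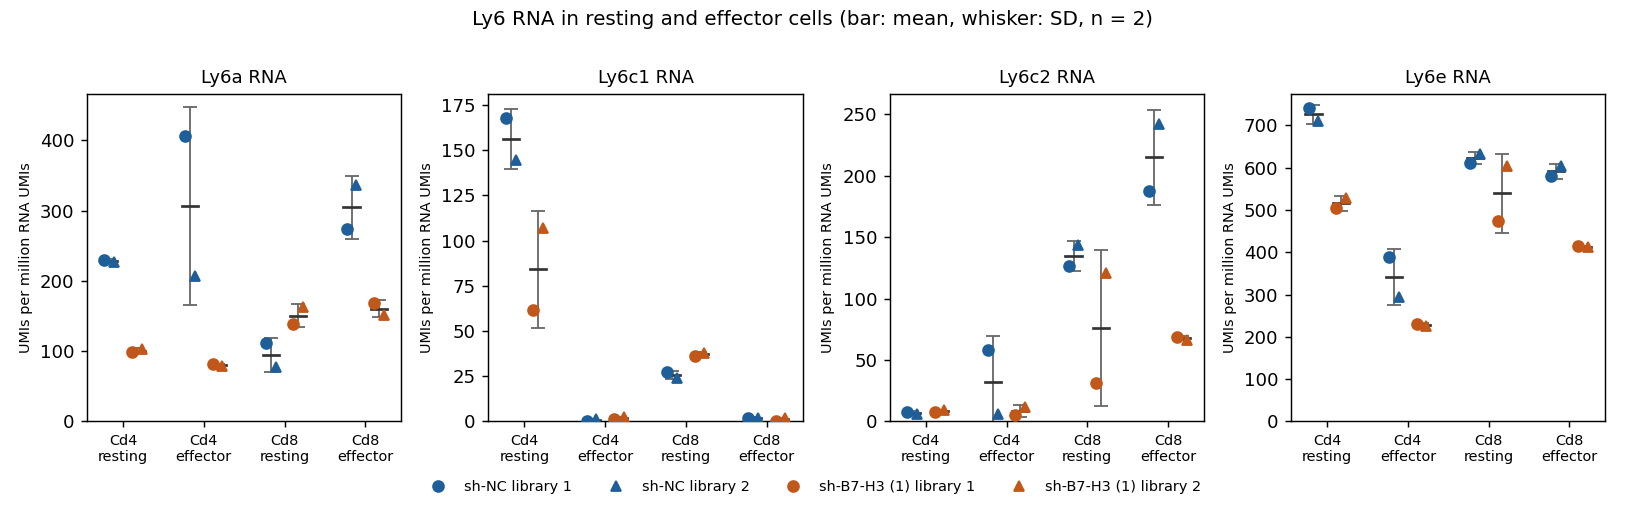
RNA of Ly6a, Ly6c1, Ly6c2 and Ly6e (CPM) in resting and effector Cd4 and Cd8 cells, with 1 point per library and bars for the mean and SD of the 2 libraries of a group. Ly6c1 is near 0 in effector cells, and Ly6c2 in effector Cd8 cells lies at 187 and 242 CPM in the sh-NC libraries against 68.9 and 66.6 CPM in the sh-B7-H3 (1) libraries.

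Cells with high Ly-6C protein were then set against cells with low protein, as the 33.3% of each library's cells with the highest and with the lowest share of the tag among tag UMIs (tag-high and tag-low cells). Ly6c2 was at 882, 907, 467 and 480.1 CPM in tag-high and 27.8, 36.4, 12.004 and 15.2 CPM in tag-low Cd8 cells. Ly6c1 was at 233, 207, 71.5 and 107 CPM against 59.2, 55.2, 2.76 and 4.21 CPM in Cd4 cells, and at 146, 166, 52.9 and 94.7 CPM against 29.3, 19.1, 5.79 and 8.70 CPM in Foxp3 cells. Each library was higher in its tag-high cells. The log2 fold changes were 5.13 for Ly6c2 in Cd8 cells (SE 0.104, edgeR adjusted p = 1.36e-08, with 18.2% of genes called, 8.56% higher and 9.61% lower), 2.69 for Ly6c1 in Cd4 cells (SE 0.362, with 19% called, 7.43% higher and 11.5% lower) and 3.18 for Ly6c1 in Foxp3 cells (SE 0.226, with 20.2% called, 9.64% higher and 10.5% lower). For Ly6c1 no p is given, since it passed the filter on low counts through the tag-high cells: tag-low cells of the sh-B7-H3 (1) libraries held 4 and 8 of its UMIs in the Cd4 and 2 and 3 in the Foxp3 class. Ly6a went the other way in Foxp3 cells, at 286, 362, 442 and 486 CPM in tag-high and 1486, 1043, 1134 and 1105 CPM in tag-low cells, a log2 difference of -1.28 (SE 0.147, edgeR adjusted p = 6.83e-06). The Ly-6A/E tag took 2.77, 2.42, 2.46 and 2.62% in tag-high against 6.11, 4.76, 5.26 and 5.76% in tag-low cells. With cells ranked by raw tag counts the Ly6a difference was -0.08 (adjusted p = 0.763), so it depends on taking the tag as a share, of which the Ly-6A/E tag is a part. In tag-high Cd4 cells Ly6a was higher by 0.47 (SE 0.134, edgeR adjusted p = 0.0384), a call lost with DESeq2 (adjusted p = 0.0701). Ly6e was higher in tag-high Cd4 cells (0.83, SE 0.159, edgeR adjusted p = 0.00848). In tag-high Cd8 cells Ly6e was higher by 0.36 (SE 0.0840, edgeR adjusted p = 0.0168), a call lost without either sh-B7-H3 (1) library. Ly6a in Cd8 cells (-0.26) and Ly6e in Foxp3 cells (-0.18) did not pass.

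**Figure D4:**
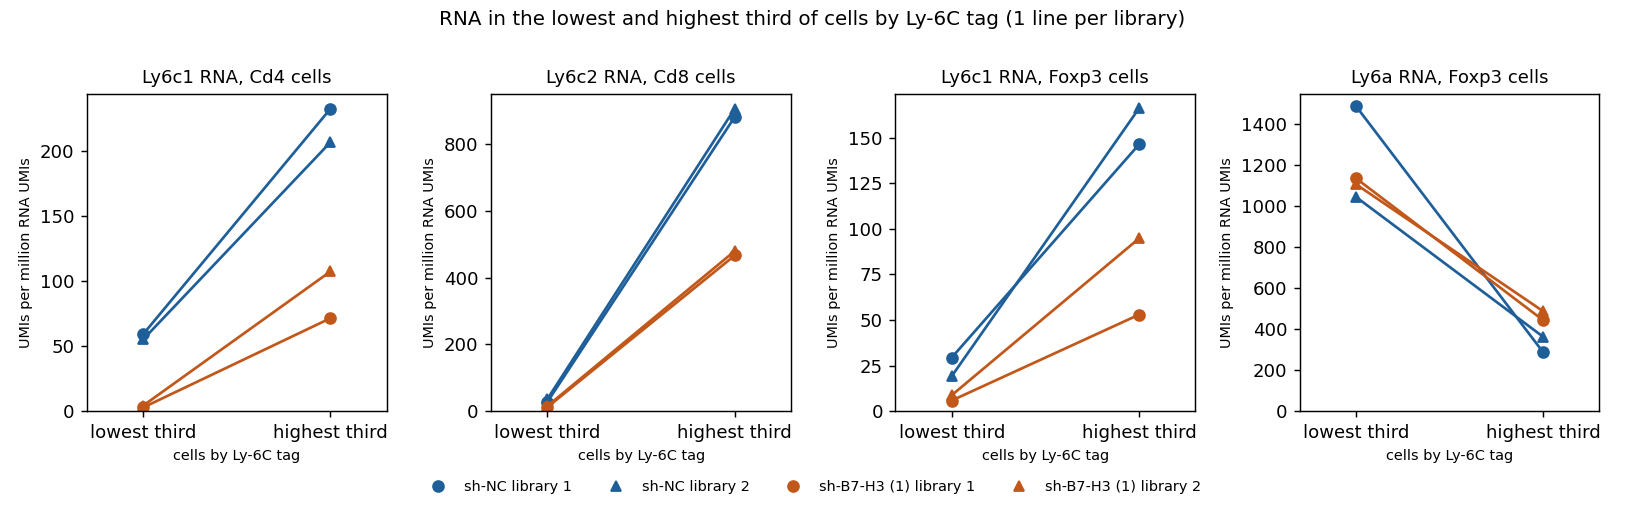
RNA (CPM) in the cells with the lowest and the highest Ly-6C tag share (33.3% of cells each), with 1 line per library. Ly6c2 in Cd8 cells and Ly6c1 in Cd4 and Foxp3 cells are higher in the tag-high cells of all 4 libraries, and Ly6a in Foxp3 cells is lower.

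Resting genes were higher and effector genes lower in cells with a high share of the Ly-6C tag. Over all genes 7.43, 8.56 and 9.64% were called higher in tag-high Cd4, Cd8 and Foxp3 cells, and 11.5, 9.61 and 10.5% lower. Of 10 resting genes tested (Ccr7 and Tcf7, a factor of naive and memory cells, among them), 8 were higher in tag-high Cd4 cells (median log2 fold change 1.55, against 0.0037 over all genes), 7 in Cd8 cells (0.95, against -0.011) and 9 in Foxp3 cells (2.12, against 0.00090), where Il7r, the interleukin-7 receptor, was lower (-0.63). Ccr7 is also part of the definition of the resting state above. All 12 effector genes tested, such as Nkg7 and Ccl5 (a chemokine of cytotoxic T cells), were lower in tag-high Cd4 (median -3.39) and Cd8 cells (median -2.21), and 7 of 9 in Foxp3 cells. Among genes whose mean reached 50 CPM, the largest rises in Cd4 cells after Ly6c1 were those of Dapl1, a gene of resting lymphocytes (1.91, SE 0.399, edgeR adjusted p = 0.0120), and Klf2, a factor of quiescence and migration (1.77). Ccl1, a T cell chemokine, had the largest fall (a mean of 0.959 against 110.2 CPM, with no test, since it passed the filter through the tag-low cells), before Ccl4 (-4.35) and Ccl3 (-4.13). In Cd8 cells Ms4a4c (2.13, SE 0.170, edgeR adjusted p = 0.000112), Dapl1 (1.82) and Id3, a factor of memory precursors (1.48), followed Ly6c2, and Ccl3 (-3.36), Ccl4 (-3.05) and the inhibitory receptors Lag3 (-2.59) and Pdcd1 (-2.54) were lowest. In Foxp3 cells Dapl1 (2.68), S1pr1, the egress receptor (2.52), and Tcf7 (2.51) were highest beside Ly6c1 and Gm2682 (2.72). Bhlhe40 (-2.90), Klrg1 (-2.85), Mt1 (-2.74) and Gzmb (-2.69) were lowest. Bhlhe40 was at a mean of 12.8 in tag-high against 98.3 CPM in tag-low cells, and Mt1 at 17.7 against 133 CPM. Both may have passed the filter on low counts through the tag-low cells and are descriptions. Dapl1, at 20.0 CPM in tag-low Foxp3 cells, may have passed it through the tag-high cells. Of 9 memory genes in Cd8 cells (median -0.051), Gzmm aside, Cxcr3 and Dapl1 were called higher and 1 lower in tag-high cells. This stands beside 8.56% of all genes higher and 9.61% lower. Il2rb, a receptor chain for interleukin-15, was the one that fell (-1.08, edgeR adjusted p = 0.00216), while Cxcr3 (0.59, edgeR adjusted p = 0.0322), Dapl1 and Gzmm, a granzyme (3.78), rose. Gzmm, which passed the filter through the tag-high cells and is given no p, was named after its values were seen. Ranking by raw tag counts called fewer genes, 996 against 1704 in Cd4 and 350 against 1047 in Foxp3 cells, and without sh-B7-H3 (1) library 2 811 were called in Cd4 cells. The lists were counted for ranking by share only.

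Likeness over the 20 sums of 5 classes and 4 libraries, ranked among 2162 genes (2163 for Ly6c1) by Pearson's r of log2(CPM + 1), set the members apart from each other. These sums share libraries and depth, so r is a description. Among the genes most like Ly6c1 were Ccr7 (0.95), which is part of the definition of the resting sums, Atp1b3 (0.94), Dgka (0.94) and Arhgap15 (0.93). Ly6c2 was most like Epsti1 (0.91), an interferon-induced gene, Cd8a (0.90) and Cd8b1 (0.90), which define the classes, then Dnajc15 (0.84) and Ms4a4b (0.77). Ly6a was most like Samhd1 (0.92), Cklf (0.90), B3gnt2 (0.90), Rap1b (0.89) and Leprotl1 (0.89), and Ly6e was most like Itgb7 (0.93), Anp32a (0.93), Ier5 (0.91), Park7 (0.91) and Grap (0.89). Between members r was 0.77 for Ly6a and Ly6e, 0.64 for Ly6c1 and Ly6e, and -0.40 for Ly6c1 and Ly6c2.

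Because Ly6 genes are known interferon targets, cells with at least 5 UMIs of Ifit1, Ifit3, Isg15, Rsad2 and Usp18 (interferon-high) were set against cells with at most 1 (interferon-low). Interferon-high cells were few in the Cd4 class, at 5.94, 5.55, 2.06 and 1.70% of 1498, 1226, 631 and 822 cells. In the Cd8 class they were 8.22, 8.09, 6.95 and 6.93% of 2677, 2360, 1166 and 1574 cells. Ly6a was higher in interferon-high cells of both lineages. In Cd4 cells it was at 679, 493, 571 and 557 CPM against 217, 214, 99.7 and 88.0 CPM, a log2 difference of 1.85 (SE 0.128, edgeR adjusted p = 7.40e-45). In Cd8 cells it was at 322, 303, 449 and 469 CPM against 66.4, 76.0, 69.9 and 61.6 CPM, a log2 difference of 2.43 (SE 0.0936, edgeR adjusted p = 7.62e-19). High and low cells do not overlap in either lineage, beside 2.51% of genes called in Cd4 and 6.03% in Cd8 cells. In Cd8 cells Ly6c2 (0.72, SE 0.0626, edgeR adjusted p = 2.49e-10) and Ly6e (0.73, SE 0.0682, edgeR adjusted p = 1.17e-09) rose, and Ly6c1 did not pass (0.27, adjusted p = 0.800). In Cd4 cells Ly6c1 rose by 0.90 (SE 0.169, edgeR adjusted p = 8.95e-06) and Ly6e by 0.49 (SE 0.119, edgeR adjusted p = 0.00191), the latter not without sh-NC library 1 (adjusted p = 0.169), sh-NC library 2 (adjusted p = 0.0720) or sh-B7-H3 (1) library 2 (adjusted p = 0.116), nor without a filter on low counts (adjusted p = 0.0768). Ly6c2 passed as well (2.52, edgeR adjusted p = 5.96e-10), on 9, 15, 3 and 22 UMIs in the high cells. In sh-B7-H3 (1) library 2 a single Cd4 cell held 22 Ly6c2 UMIs, and whether it was interferon-high was not examined.

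**Figure D5:**
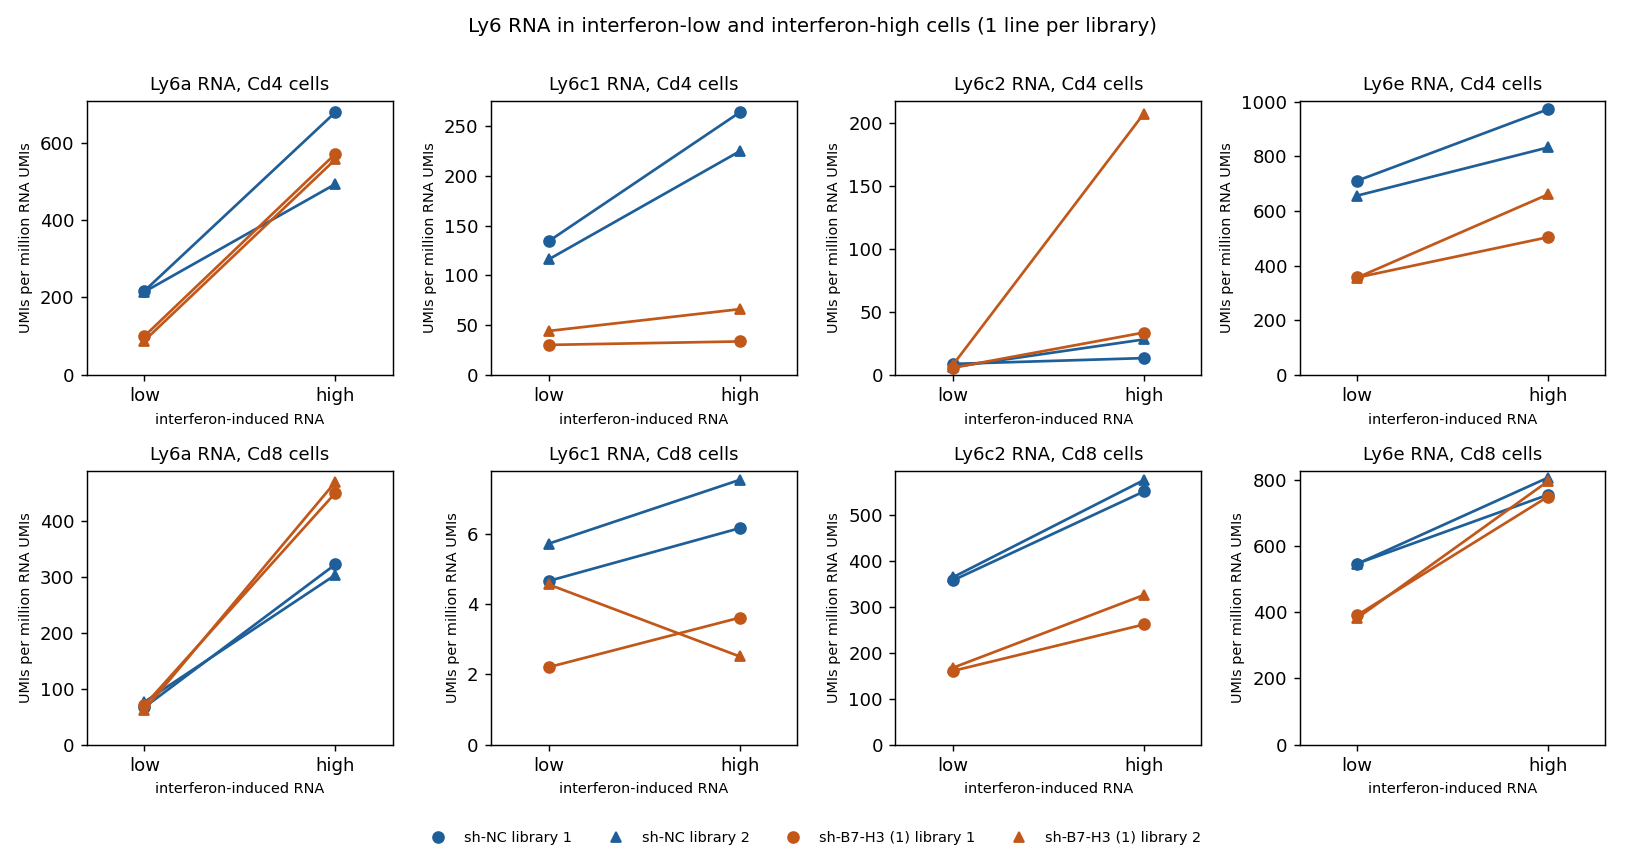
RNA of the Ly6 genes (CPM) in interferon-low and interferon-high Cd4 (top) and Cd8 cells (bottom), with 1 line per library. Ly6a is higher in interferon-high cells of all libraries, at 493 to 679 CPM in Cd4 and 303 to 469 CPM in Cd8 cells.

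Interferon-high cells were less frequent among Cd4 cells under the knockdown, at 5.74 ± 0.279% against 1.88 ± 0.252% (SD, n = 2), and 8.16 ± 0.0883% against 6.94 ± 0.0154% among Cd8 cells. These cells were not thinned, and depth differed. Median RNA UMIs per cell were 7522, 8043, 6662 and 6829 in Cd4 and 8643, 8991, 6777.5 and 6970.5 in Cd8 cells. The part of depth in these shares was not tested. Of 21 interferon genes tested in Cd4 cells 14 fell and 1 rose under the knockdown (median log2 fold change -0.59), beside 19.5% of all genes lower and 20.5% higher. In Cd8 cells 7 fell and 5 rose (median -0.04), close to the 22.5% lower and 23% higher over all genes. In resting Cd4 cells 8 of 19 fell and 0 rose (median -0.68, with 0.883% of all genes lower), and in effector Cd8 cells 13 of 18 fell and 0 rose (median -0.45, with 6.74% lower). In effector Cd4 cells, where Ly6a fell, 1 of 17 fell and 0 rose (median -0.19, with 4.34% called), and in Foxp3 cells 4 of 17 rose and 0 fell (median 0.36, with 2.96% higher). The part of interferon in the differences of Ly6a was not tested.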

How the data were processed

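Each library gave RNA (10x Genomics 3′ v3.1) and TotalSeq-A antibody tags of the same cells. The deposited values are raw UMI counts, which the authors made with Cell Ranger (6.1.1 per the file headers, mm10) without normalization. The labels also name Seurat 4.0.0. An unnamed tag was left out.

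Cells with 200 to 3000 genes and at most 5% mitochondrial UMIs were kept, and doublets, scored per library against simulated ones, were removed (13.3 to 16.0% of cells). Cells with more than 3 macrophage UMIs and cells called as 2 lineages were left out of the classes. UMIs were summed per library and class and tested with edgeR 4.0.16 in R 4.3.3 (quasi-likelihood, TMM, filterByExpr, Benjamini-Hochberg over all genes or tags). Comparisons within libraries had library as a block, and differences between lineages an interaction. DESeq2 1.42.0, other scalings, filters, gates and leaving out each library were alternatives. Descriptions used Python 3.11.15. The code was tested on simulated data.

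Members, lists and tests were chosen with earlier results of these data known, so adjusted p-values are no independent support. Besides the members, the text names family genes that reach 5 CPM, the 5 genes most like each member, and the 5 called genes at either end between tag-high and tag-low cells of a lineage (mean over 50 CPM). The other marker of resting cells is not reported here. Same-numbered libraries did not deviate together (r = -0.0477 in Cd4, -0.0914 in Cd8 and 0.0192 in Foxp3 cells), so the numbers do not pair them.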

Additional observations from a re-analysis of the deposited data

Results flagged for a closer look

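Over whole classes, the knockdown effect differed between Cd8 and Cd4 cells for Ly6a, Ly6e and Ly6c2 by the interaction test in edgeR. There 4.93% of all genes were called. The difference was not tested within resting or effector cells, whose shares of the classes differed between the groups. The difference of the log2 fold changes, Cd8 minus Cd4, was 1.304 for Ly6a, 0.52 for Ly6e and -0.92 for Ly6c2, and 0.58 for the Ly-6A/E (Sca-1) tag. The call of Ly6c2 ended with DESeq2 and without single libraries, and that of the tag without any 1 library. For Ly6c1 the difference was 1.06, a description, since its fall in Cd4 cells took part in choosing the gene. A signal lay outside the cells: in droplets without a cell the Ly-6C tag's share of tag UMIs was lower in the sh-B7-H3 (1) than in the sh-NC libraries by a log2 ratio of -1.66, while the RNA there differed by -0.98 for Ly6c1, -0.53 for Ly6c2, -0.27 for Ly6a and -0.19 for Ly6e. Total tag UMIs per such droplet were 11.99 ± 6.90 against 39.9 ± 0.606 (SD, n = 2). What part this free antibody had in the cells' tag counts was not tested.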

How the results depend on the processing

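Of 988 alternative values for 77 log2 fold changes, 888 kept direction and side of the threshold, 55 no longer passed, 24 newly passed and 21 reversed. The replicate block was fitted 32 times and changed 0 calls. The cause of the changes below was not tested. Over all genes the main fits called 5.64% in Foxp3 cells and 4.34% in effector Cd4 cells under the knockdown. They called 18.2% between tag-high and tag-low Cd8 cells and 4.93% for the difference between lineages. The number of members called in Foxp3 cells under the knockdown went from 2 to 1 with DESeq2, without a filter on low counts, with lineages called from tags and with cells of 4000 to 12000 UMIs (1 to 2 leaving out a library). In effector Cd4 cells it went from 3 to 1 with DESeq2. Between tag-high and tag-low Cd8 cells it was 3, Ly6c1 included, and 1 to 4 leaving out a library. Between such Foxp3 cells the call of Ly6a ended with raw tag counts (-0.08, edgeR adjusted p = 0.763). Members under the threshold for a difference between lineages went from 4 to 2 with DESeq2 (2 to 4). That count includes Ly6c1, whose difference is a description. The Ly-6C tag in Foxp3 against Cd4 cells passed with DESeq2 (-0.14) and with lineages from tags (-0.17). Its difference of effects between lineages turned positive without the upper gene limit (0.00038), with cells of 4000 to 12000 UMIs (0.0024) and with total tag counts (0.11), and lay at -0.063 to 0.024 leaving out a library. With tag background subtracted, an alternative chosen after seeing the data, its log2 ratio was -2.18 in Cd4, -1.46 in Cd8 and -2.10 in Foxp3 cells. That background was the tag share in effector Cd4 cells with no Ly6c1 or Ly6c2 UMI. These cells belong to the Cd4 class and are a larger part of it under the knockdown, so the Cd4 ratio also depends on makeup.

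Reversed values of single genes were as follows. Without doublet removal Ly6c2 under the knockdown was 0.12 in Cd4 and 0.77 in Foxp3 cells. With lineages from tags Ly6a was -0.036 in Foxp3 and -0.26 in resting Cd8 cells. With cells of 4000 to 12000 UMIs Ly6c2 was 0.016 in effector Cd4 cells and -0.24 between effector and resting Cd4 cells. With total tag counts the Ly-6A/E tag was 0.063 in Foxp3 cells, and with cells ranked by raw tag counts Ly6a was 0.050 in tag-high Cd8 cells. Leaving out a library, Ly6c2 under the knockdown ranged from -0.74 to 0.21 in Cd4 and from -2.61 to 0.69 in effector Cd4 cells, Ly6a from -0.095 to 0.040 in Cd8 cells, Ly6e from -0.36 to 0.034 in resting Cd8 cells, and Ly6c2 between effector and resting cells from -0.35 to 1.40 in Cd4 and from -0.013 to 0.45 in Cd8 cells. DESeq2 called fewer genes overall under the knockdown, 2379 against 4333 in Cd4, 3068 against 5270 in Cd8 and 158 against 473 in Foxp3 cells, and 94 against 574 for the difference between lineages.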
